A study of Mus musculus with 6 samples.

Results

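The genes described are Lrrk2, its paralogue Lrrk1 and 8 genes whose proteins act with or downstream of LRRK2. They were taken from the deposited table by gene symbol, and all 10 were found, each once, among 23067 genes. The assay was bulk RNA sequencing of mouse dorsal striatum, taken on postnatal day 21. The 3 knock-in libraries are homozygous for a G2019S allele of Lrrk2 (genotype Lrrk2G2019S/G2019S), and the 3 wild-type libraries carry Lrrk2WT/WT. No drug, transgene or Cre driver is named in the labels for either group. Neither the strain nor whether libraries of a group came from separate animals is stated in the labels, so a p-value measures the spread between these libraries, which may be technical in part.

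LRRK2 is a large protein kinase with a GTPase domain. It phosphorylates a set of Rab GTPases, the switches that mark vesicle and organelle membranes, and the phosphorylated Rabs bind a different set of effectors. The G2019S change lies in the activation segment of the kinase domain, raises kinase activity and is a common cause of familial Parkinson's disease in humans. In the striatum Lrrk2 is known to be expressed by projection neurons, which receive cortical input. PPM1H is a phosphatase that removes the phosphate from Rabs. VPS35 is the core subunit of retromer, which returns cargo from endosomes, and a human VPS35 change also causes Parkinson's disease. RILPL1, RILPL2, JIP3 (Mapk8ip3) and JIP4 (Spag9) bind phosphorylated Rabs, and GAK and auxilin (Dnajc6) help Hsc70 strip clathrin from vesicles.

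The edited site is shown because it is the only designed difference between the genotypes. In the reference, codon 2019 of Lrrk2 is GGG, for glycine, at bases 91787072 to 91787074 of chromosome 15 (GRCm38, plus strand), in exon 41 of the 51 exons of the coding transcript of GENCODE release M21. The window chr15:91787042-91787104 lies within that exon. It is given as reference sequence, 5′ to 3′, with codon 2019 in capitals.
Lrrk2 codon 2019 with 30 bases on each side: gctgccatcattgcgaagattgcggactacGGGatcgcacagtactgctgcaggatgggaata
The deposited table gives 1 level per gene and no reads, so the knock-in codon itself was not analysed here. A change of 1 codon leaves the transcript in place, so the level of Lrrk2 does not check the genotype labels.

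The libraries resembled each other closely, with correlations of 0.983 to 0.990 over tested genes. Levels are given in FPKM, fragments scaled for transcript length and library size, which can be compared between genes. The depth of each library is unknown because the table holds no counts. All 12 projection neuron markers were present in every library, and Ppp1r1b, which encodes DARPP-32, stood at 750 to 780 FPKM in knock-in and at 760 to 835 FPKM in wild-type libraries. The titles call all animals male, yet Xist, the RNA of the inactive X chromosome, was at 27.2 to 39.3 FPKM in knock-in and at 31.4 to 33.0 FPKM in wild-type libraries, and 4 Y-linked genes looked for have no row. The Xist ranges of the groups overlap, and all 6 libraries share this conflict with their titles. Markers of cortical excitatory neurons, all 11 measured, summed to 52.7 to 97.1 FPKM in knock-in and to 50.1 to 67.6 FPKM in wild-type libraries, with Slc17a7, their vesicular glutamate transporter, at 29.9, 25.2 and 3.41 FPKM across knock-in replicates 1 to 3 and 11.0, 3.55 and 2.73 FPKM across wild-type replicates 1 to 3. All 10 oligodendrocyte markers were measured and summed to 2943 to 3644 FPKM in knock-in and to 3620 to 4128 FPKM in wild-type libraries. All 7 ependyma and choroid plexus markers were measured and summed to 16.3 to 30.8 FPKM in knock-in libraries, wholly below the wild-type sums of 37.3, 397 and 31.8 FPKM in replicates 1 to 3, of which replicate 2 stood apart. In bulk tissue, fewer cells of a type and less RNA per cell cannot be told apart.

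Across all 6 libraries the genes fell into 3 tiers. Spag9 and Dnajc6 were the most abundant, with means of 26.3 and 22.7 FPKM, followed by Mapk8ip3 at 16.8, Vps35 at 14.5, Rilpl1 at 12.9, Gak at 12.7 and Lrrk2 at 11.6 FPKM. Ppm1h at 3.42 and Rilpl2 at 2.75 FPKM formed a lower tier, and Lrrk1 stood below 1 FPKM at 0.544. Lrrk2 was thus the least abundant of the upper 7 genes, and 82.0% of all genes in the table had a lower mean level. Neighbours in this order differed in the same direction in 6 of 6 libraries, apart from Rilpl1 over Gak (3 of 6) and Gak over Lrrk2 (5 of 6), which do not differ beyond their spread. The ranges over libraries did not overlap at 3 steps, between Dnajc6 and Mapk8ip3, between Lrrk2 and Ppm1h, a 3.39-fold step in mean level, and between Rilpl2 and Lrrk1, a 5.06-fold step.

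**Figure D1:**
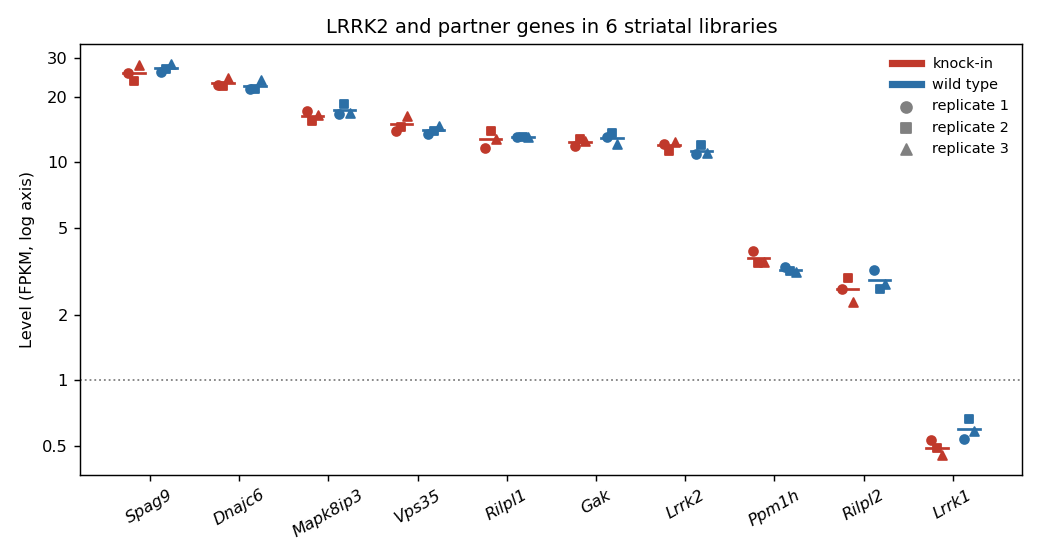
Level in FPKM (log axis) of each of the 10 genes in the 3 knock-in libraries (red, left of each pair) and the 3 wild-type libraries (blue), with the replicate shown by the symbol and the group mean by a bar; the dotted line is 1 FPKM. The groups overlap for 8 genes, while Ppm1h lies higher and Lrrk1 lower in all knock-in libraries.

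The genotype comparison asked whether homozygous G2019S knock-in changes the messenger RNA of the kinase or of its partners. The fit by limma covered the 14156 genes whose mean reached 1 FPKM, on log2(FPKM + 1), a scale that understates the change of low genes. Of the 10 genes 9 passed that minimum, all but Lrrk1, and 0 of the 9 were called at an adjusted p under 0.05, where 0.0212% of all tested genes were called. At an unadjusted p under 0.05 the count was also 0 of 9, against 4.27% of tested genes. In limma the adjusted p was 0.997 for each of the 9, so unadjusted values are given for them below. On average 4 were higher and 5 lower, and the split was the same under median-of-ratios scaling, quantile normalization and the TPM scale, on which every library sums to the same total. The median log2 difference of the 9 was -0.03, against -0.01 over all tested genes. The 95% intervals of the fold in FPKM + 1, knock-in over wild type, lay between 0.806 and 1.23 for all 9, so larger differences in either direction fall outside the intervals of these genes.

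Lrrk2 itself stood at 12.1, 11.3 and 12.4 FPKM in knock-in replicates 1 to 3. It stood at 10.9, 12.0 and 11.0 FPKM in wild-type replicates 1 to 3. The groups overlapped, since wild-type replicate 2 lay above knock-in replicate 2 and close to knock-in replicate 1. The means were 5.64% apart, at 11.9 ± 0.579 FPKM in knock-in and 11.3 ± 0.625 FPKM in wild type (SD, n = 3 each), and the log2 difference of 0.07 (SE 0.07) was about the size of its error. Of the 2 libraries highest in Slc17a7, knock-in replicate 2 had the lowest Lrrk2 of its genotype and knock-in replicate 1 the middle level. Wild-type replicate 1, the highest of its group in Slc17a7, had the lowest Lrrk2 of all 6 libraries. With the mean of the cortical markers as covariate, a fit added once values were known, the log2 difference was 0.11 (unadjusted p = 0.184 and adjusted p = 0.669 in limma). The part of the cortical markers in the Lrrk2 difference was not tested beyond this fit.

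Lrrk1, a kinase of the same family that phosphorylates Rab7a, was scarce in this tissue. It stood at 0.531, 0.488 and 0.455 FPKM in knock-in replicates 1 to 3, against 0.540, 0.662 and 0.589 FPKM in wild-type replicates 1 to 3. The groups did not overlap, but the gap between knock-in replicate 1 and wild-type replicate 1 was small. The means were 0.492 ± 0.0382 FPKM in knock-in and 0.597 ± 0.0615 FPKM in wild type (SD, n = 3 each), a ratio of 0.823. As its mean is under 1 FPKM, Lrrk1 was not among the genes tested. With no minimum level, over 23067 genes, its log2 difference was -0.10 (SE 0.06, unadjusted p = 0.130, adjusted p = 0.971 in limma). On this scale a low gene is compressed, and with a pseudocount of 0.1 the difference was -0.24. Wild-type replicate 2 was the library highest in Lrrk1 and in choroid plexus markers. With single libraries left out, the difference on log2(FPKM + 1) ran from -0.12 (without wild-type replicate 1) to -0.07 (without wild-type replicate 2). The part of the choroid plexus markers in the Lrrk1 difference was not tested.

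Ppm1h, the Rab phosphatase that opposes LRRK2, was higher in every knock-in library than in any wild-type library. It stood at 3.93, 3.47 and 3.50 FPKM in knock-in replicates 1 to 3, against 3.32, 3.16 and 3.15 FPKM in wild-type replicates 1 to 3. The means were 3.63 ± 0.258 FPKM in knock-in and 3.21 ± 0.0943 FPKM in wild type (SD, n = 3 each), a ratio of 1.13. The log2 difference was 0.14 (SE 0.07, unadjusted p = 0.0775 in limma), the smallest p of the 9 genes. The 95% interval of the fold in FPKM + 1, a measure unlike the ratio of FPKM, ran from 0.987 to 1.23. At this level that scale understates the change, and with a pseudocount of 0.1 the log2 difference was 0.17. Ppm1h was not called, as its adjusted p was 0.997 in limma. The gap between the lowest knock-in and the highest wild-type library was 0.149 FPKM, smaller than the knock-in SD. Knock-in replicate 1, the library with the highest cortical marker sum, also had the highest Ppm1h, and without that library the log2 difference was 0.09. Knock-in replicate 2, also rich in cortical markers, had the lowest Ppm1h of its genotype, close to knock-in replicate 3, and without it the difference was 0.16. Of the wild-type libraries, replicate 1 was the richest in cortical markers and had the highest Ppm1h, and without it the difference was also 0.16. Without knock-in replicate 3, low in cortical markers, the difference was also 0.16. With the mean level of the cortical markers as a covariate, a fit added once values were known, the difference was 0.09 (unadjusted p = 0.267 and adjusted p = 0.725 in limma). The part of the cortical markers in the Ppm1h difference was not tested beyond this fit. Ppm1h was 1 of 9 tested genes whose groups did not overlap, against 9.51% of all tested genes, and with Lrrk1 the count was 2 of 10, against 10.4% of all genes in the table.

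Vps35, the retromer core, stood at 13.9, 14.5 and 16.3 FPKM in knock-in replicates 1 to 3, against 13.5, 13.9 and 14.7 FPKM in wild-type replicates 1 to 3. Knock-in replicate 3 was the highest library, and the other 2 knock-in libraries lay inside the wild-type range. The means were 14.9 ± 1.21 FPKM in knock-in and 14.03 ± 0.605 FPKM in wild type (SD, n = 3 each), with a log2 difference of 0.08 (SE 0.07, unadjusted p = 0.303 in limma) that was 0.019 without knock-in replicate 3.

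**Figure D2:**
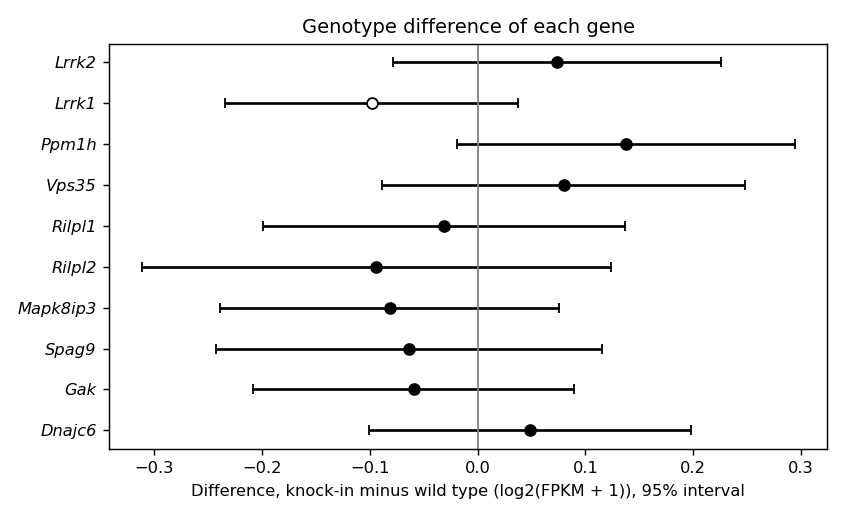
Difference between knock-in and wild type on log2(FPKM + 1) for each gene, with its 95% interval from limma; the open point is Lrrk1, from the fit with no minimum level. All 10 intervals include 0, and that of Ppm1h reaches furthest above it.

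The 4 effectors of phosphorylated Rabs had lower means in knock-in striatum with all 6 libraries, and the groups overlapped in each case. The size of these small differences depended on which library was left out, and omissions that shrank or turned them are given for each gene. When single libraries were left out, Rilpl1 and Rilpl2 differed most without knock-in replicate 2, at -0.09 and -0.16 log2 units. Mapk8ip3 differed most without knock-in replicate 1 (-0.12) and Spag9 without knock-in replicate 3 (-0.12). Rilpl1, which binds phosphorylated Rab8a and Rab10 and is known for its effect on primary cilia, stood at 11.6, 13.9 and 12.8 FPKM in knock-in replicates 1 to 3, against 13.0, 13.1 and 13.1 FPKM in wild-type replicates 1 to 3. The wild-type libraries were nearly identical, with an SD of 0.0475 FPKM around 13.0, while knock-in libraries lay on both sides of them with an SD of 1.15 FPKM around 12.8. Its log2 difference was -0.03 (SE 0.07, unadjusted p = 0.674 in limma), and without knock-in replicate 1 it turned to 0.03. Rilpl2, the shorter relative that binds the same Rabs and myosin Va, stood at 2.64, 2.96 and 2.30 FPKM in knock-in replicates 1 to 3, against 3.22, 2.63 and 2.77 FPKM in wild-type replicates 1 to 3. It had the widest spread of the 10 genes in both groups, with a coefficient of variation of 12.5% in knock-in and 10.6% in wild type, and its log2 difference was -0.09 (SE 0.09, unadjusted p = 0.345). The lowest library for Rilpl2 was knock-in replicate 3 and the highest was wild-type replicate 1, and the difference was -0.03 without the one or without the other.

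The JIP scaffolds connect vesicles to kinesin and dynein motors, and both are among the more abundant genes here. Mapk8ip3 stood at 17.2, 15.4 and 16.4 FPKM in knock-in replicates 1 to 3, against 16.7, 18.5 and 16.9 FPKM in wild-type replicates 1 to 3. Its means were 16.3 ± 0.905 FPKM in knock-in and 17.3 ± 0.963 FPKM in wild type (SD, n = 3 each), and the log2 difference was -0.08 (SE 0.07, unadjusted p = 0.262 in limma). Only knock-in replicate 1 lay inside the wild-type range, and the difference was -0.04 without wild-type replicate 2, the library highest in Mapk8ip3 and in choroid plexus markers, and also -0.04 without knock-in replicate 2. The part of the choroid plexus markers in the Mapk8ip3 and Gak differences was not tested. Spag9 stood at 25.7, 23.5 and 28.0 FPKM in knock-in replicates 1 to 3, against 25.8, 26.6 and 28.3 FPKM in wild-type replicates 1 to 3. Its log2 difference of -0.06 (SE 0.08, unadjusted p = 0.430) rested mostly on knock-in replicate 2, without which it was -0.0033.

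The uncoating partners stood in opposite directions on average, each by a log2 difference smaller than its SE. Gak, the broadly expressed cofactor of clathrin uncoating, lies near a Parkinson's disease association signal in humans. It stood at 11.9, 12.8 and 12.4 FPKM in knock-in replicates 1 to 3, against 13.0, 13.7 and 12.2 FPKM in wild-type replicates 1 to 3, a log2 difference of -0.06 (SE 0.06, unadjusted p = 0.383 in limma). Dnajc6, the neuronal cofactor auxilin, whose loss causes juvenile parkinsonism in humans, stood at 22.7, 22.4 and 24.2 FPKM in knock-in replicates 1 to 3, against 21.6, 21.6 and 23.7 FPKM in wild-type replicates 1 to 3, a log2 difference of 0.05 (SE 0.06, unadjusted p = 0.470). The Gak difference was -0.02 without wild-type replicate 2, its highest library, and the Dnajc6 difference was 0.015 without knock-in replicate 3. Without wild-type replicate 3 both were larger, at -0.10 for Gak and 0.09 for Dnajc6. In both groups replicate 3 held the highest Dnajc6, and wild-type replicate 3 held the lowest wild-type Gak.

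Related genes were also compared as FPKM ratios within each library, where a common scale factor cancels. Lrrk2 was 22.7, 23.1 and 27.3 times as abundant as Lrrk1 in knock-in replicates 1 to 3 and 20.1, 18.1 and 18.7 times in wild-type replicates 1 to 3. The groups did not overlap, and the log2 ratio was 4.60 ± 0.145 in knock-in and 4.25 ± 0.0779 in wild type (SD, n = 3 each), a difference of 0.36 (exact permutation test, two-sided, p = 0.1, the smallest that 3 against 3 libraries allow, and adjusted p = 0.4 over the 4 pairs). A pseudocount of 1 FPKM, large beside the level of Lrrk1, brought that difference to 0.17. This ratio uses the Lrrk1 levels under 1 FPKM given above, whose groups did not overlap, while the Lrrk2 groups did, so it is no separate finding. Without wild-type replicate 2, highest in Lrrk1, the ratio difference was 0.33. Rilpl1 exceeded Rilpl2 by 4.40 to 5.57 times in knock-in and by 4.04 to 4.97 times in wild-type libraries (exact permutation p = 0.6). Mapk8ip3 stood at 0.587 to 0.669 of the level of Spag9 in knock-in and at 0.596 to 0.694 in wild-type libraries (exact permutation p = 0.8). Gak stood at 0.513 to 0.572 of the level of Dnajc6 in knock-in and at 0.513 to 0.633 in wild-type libraries (exact permutation p = 0.4). In each of these other 3 pairs the same gene was the more abundant in all 6 libraries, the groups overlapped and the adjusted p was 0.8.

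**Figure D3:**
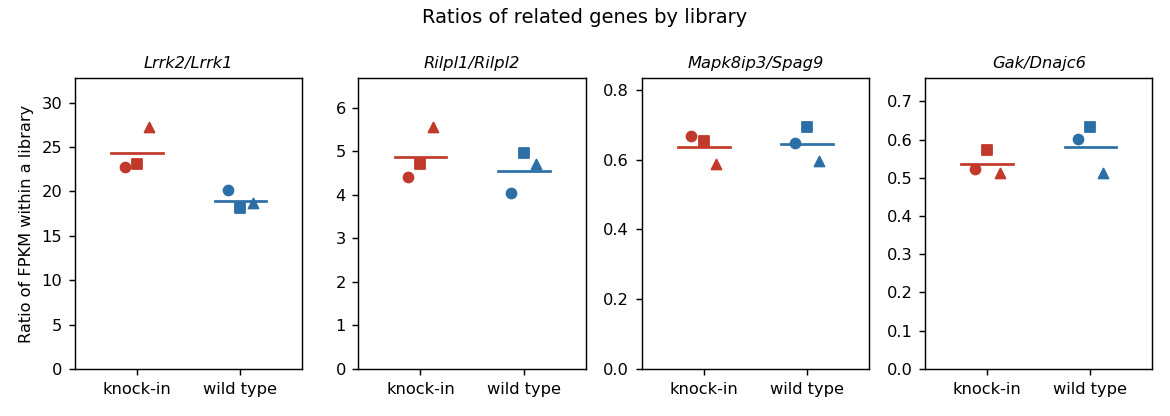
Ratio of FPKM of 4 pairs of related genes within each library, for knock-in (red, left) and wild type (blue, right), with the geometric mean of each group as a bar; each axis starts at 0. The Lrrk2 to Lrrk1 ratios of the knock-in libraries, from 22.7, lie above those of the wild-type libraries, up to 20.1, and the other 3 pairs overlap.

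No library was high or low for the whole set. The highest level of a gene fell in knock-in replicate 3 for Lrrk2, Vps35 and Dnajc6, in wild-type replicate 2 for Lrrk1, Mapk8ip3 and Gak, and in 1 gene each in the other 4 libraries. Relative to the wild-type mean, the median over the 10 genes was -0.04, 0.0028 and 0.015 log2 units in knock-in replicates 1 to 3 and -0.04, -0.0064 and -0.014 in wild-type replicates 1 to 3. The coefficients of variation of the 9 tested genes had a median of 7.10% in knock-in and 5.39% in wild type, against 8.85% in knock-in and 6.13% in wild type over all tested genes. The 3 genes whose pattern over the 6 libraries was most like that of Lrrk2, among 7791 genes whose mean reached 5 FPKM, were 1810022K09Rik, the clock factor gene Arntl and the sodium channel subunit gene Scn2b. Their root mean square differences from the log2 deviations of Lrrk2 were 0.018, 0.022 and 0.028, where the median gene was at 0.117. As they were picked for the smallest values among these genes, lying below the median follows from the choice.

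Other genes of the same pathways were read from the same fit, and 0 of the 92 tested were called. At an unadjusted p under 0.05 there were 3 of 92, against 4.27% of all tested genes, and in 8 of 92 the groups did not overlap, against 9.51% of all tested genes. On the TPM scale, which moves some of the splits below, the median over all genes tested there was -0.06. It was 0.0027 under median-of-ratios scaling and -0.00097 under quantile normalization. Of 14 Rab genes whose products LRRK2 phosphorylates or is reported to phosphorylate, 8 were higher and 6 lower on average, with a median log2 difference of 0.03. On the TPM scale 6 were higher and 8 lower, while under median-of-ratios scaling and quantile normalization 9 were higher and 5 lower. Rab43 stood at 5.01, 5.60 and 4.95 FPKM in knock-in replicates 1 to 3, against 0.449, 4.93 and 3.90 FPKM in wild-type replicates 1 to 3, so that its log2 difference of 0.83 (SE 0.56, unadjusted p = 0.195 in limma) rested on wild-type replicate 1, the only library under 1 FPKM. Rab3c of synaptic vesicles averaged 33.2 FPKM in knock-in and 31.0 FPKM in wild type, and Rab29, which recruits LRRK2 to the Golgi, averaged 2.36 FPKM in knock-in and 2.60 FPKM in wild type. Of the relatives of Ppm1h, Ppm1m averaged 3.16 FPKM in knock-in and 3.60 FPKM in wild type with overlapping groups, and Ppm1j was under the minimum level. Among 15 retromer and WASH complex genes 8 were higher and 7 lower on average, with a median of 0.00079. Their log2 differences ran from -0.07 (Washc5) to 0.07 (Washc4). On the TPM scale 3 were higher and 12 lower, while under median-of-ratios scaling and quantile normalization 8 were higher and 7 lower.

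Among 14 tested genes for chaperones, 14-3-3 proteins and other LRRK2-binding proteins, 13 were higher on average in knock-in, with a median log2 difference of 0.05. Under median-of-ratios scaling and quantile normalization 13 were also higher and 1 lower, but on the TPM scale the split was 7 higher and 7 lower. The largest were the 14-3-3 genes Ywhah and Ywhag, whose products bind phosphorylated LRRK2. Ywhah stood at 69.5, 70.8 and 62.7 FPKM in knock-in replicates 1 to 3, against 60.4, 56.8 and 61.8 FPKM in wild-type replicates 1 to 3 (log2 difference 0.18, unadjusted p = 0.0375 and adjusted p = 0.997 in limma). Ywhag stood at 96.9, 98.6 and 89.5 FPKM in knock-in replicates 1 to 3, against 83.1, 85.7 and 88.1 FPKM in wild-type replicates 1 to 3 (log2 difference 0.15, unadjusted p = 0.0536). Neither gene overlapped between groups, and in both the knock-in libraries rich in cortical markers, replicates 1 and 2, were the highest. Of the wild-type libraries, replicate 1 was the richest in cortical markers but had the lowest Ywhag. Wild-type replicate 3 had the highest wild-type level of both genes. A relation to cortical markers was not tested. Among 20 motor and adaptor genes of JIP3 and JIP4, 13 were higher and 7 lower on average, with a median of 0.0098. On the TPM scale 8 were higher and 12 lower. The split was 14 and 6 under median-of-ratios scaling and 13 and 7 under quantile normalization.

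Among 28 genes of the clathrin coat and synaptic endocytosis, 16 were higher and 12 lower on average, with a median of 0.015. Their log2 differences ran from -0.48 to 0.43, the upper end being Ap2s1. Of the 28, 2 had an unadjusted p under 0.05, where 4.27% of all tested genes did. On the TPM scale 9 were higher and 19 lower. The split was 18 and 10 under median-of-ratios scaling and 14 and 14 under quantile normalization. Ap2s1, the small subunit of the AP-2 adaptor that selects cargo for clathrin pits, stood at 51.8, 61.1 and 44.9 FPKM in knock-in replicates 1 to 3, against 41.5, 37.2 and 37.1 FPKM in wild-type replicates 1 to 3. The groups did not overlap and the ratio of means was 1.36, with a log2 difference of 0.43 (SE 0.11, unadjusted p = 0.00602 and adjusted p = 0.997 in limma). Here too knock-in replicates 1 and 2 were the highest, and, unlike for Ywhah and Ywhag, wild-type replicate 1 was the highest of its group. These are the libraries with the highest cortical marker sums, and this relation was not tested. Sh3gl3, an endophilin gene, averaged 15.3 ± 1.30 FPKM in knock-in and 17.6 ± 1.08 FPKM in wild type (SD, n = 3 each, unadjusted p = 0.0437 and adjusted p = 0.997 in limma), with overlapping groups.

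**Figure D4:**
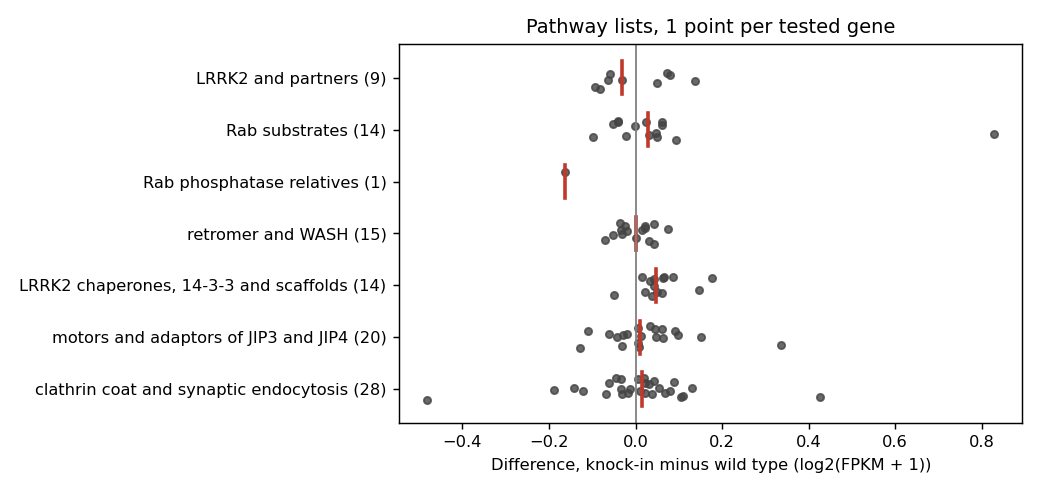
Difference between knock-in and wild type on log2(FPKM + 1), 1 point per tested gene, for the 9 tested genes of the LRRK2 set and 6 lists of pathway genes, with the number of tested genes in brackets and the list median as a red bar. Medians of the LRRK2 set and of the 5 lists with more than 1 gene lie between -0.03 and 0.05, and the point at 0.83 is Rab43. On the TPM scale each median but that of chaperones and 14-3-3 proteins is below 0. Under median-of-ratios scaling and quantile normalization the medians of these 5 lists are above 0 and that of the LRRK2 set is below 0.

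The genes lie on 8 chromosomes, and their annotation bears on how reads could be assigned. Lrrk2 (ENSMUSG00000036273) spans 91673175 to 91816120 on chromosome 15, with 6 annotated transcripts of which 1 is coding, and shares no exon base with another gene. Lrrk1 (ENSMUSG00000015133) spans 66226912 to 66388350 on chromosome 7, and its exons are also free of overlap. Ppm1h (ENSMUSG00000034613) spans 122678762 to 122945795 on chromosome 10, and of its 10226 exon bases 101 are those of the microRNA gene Mir8104 on the same strand and 225 lie opposite A430028G04Rik. Mapk8ip3 (ENSMUSG00000024163), at 24892153 to 24936977 on chromosome 17, shares 1557 exon bases with Eme2 on the same strand and has 1886 opposite Mrps34 or Nme3, the most of the 10 genes, so part of its level could come from reads of those genes. Rilpl2 and Rilpl1 lie close together on the minus strand of chromosome 5, at 124463265 to 124478366 and at 124493080 to 124531391, with 14.7 kb between them that holds Snrnp35 on the plus strand. All positions are on GRCm38 in GENCODE release M21, and the authors' annotation may be another one.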

How the data were processed

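Total RNA of dorsal striatum was sequenced from 3 knock-in and 3 wild-type samples. The authors deposited a table of FPKM values, per the file headers. The submitters' processing notes list the tools FastQC, HISAT2, SAMtools and StringTie, with neither version nor role. Build, gene annotation and the strandedness of counting are not stated in the labels or the file. Per the labels, a stranded run was made. The table holds 0 values at 0, so genes at 0 in a library may have no row. Columns were matched to samples by the codes in the labels. Values were used as log2(FPKM + 1) for genes whose mean reached 1 FPKM. The two-sided genotype test used limma 3.58.1 (R 4.3.3), with eBayes set to trend and robust, and with Benjamini-Hochberg adjustment over 14156 genes, and called at an adjusted p under 0.05. Adjusted and unadjusted p-values of genes are from this model, except where another fit is named beside them. Intervals are 95% intervals. FPKM ratios within a library were compared by exact permutation of libraries. The fit was tested on simulated data. Alternatives were other pseudocounts, minimum levels and scalings, a replicate block and leaving out each library. All 10 members are named. Of each pathway list up to 3 tested genes with the smallest p could be named. The defining marker of a cell type list is named where a result touches it. For Lrrk2, the 3 genes with the smallest root mean square difference were named. Members and lists were chosen with earlier results of these data known. Xist and the Y-linked genes were chosen after values were seen. The edited codon was located from the annotated coding sequence of GENCODE release M21.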

Additional observations from a re-analysis of the deposited data

How the results depend on the processing

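None of the 10 genes was called in any of the 14 alternatives run, Lrrk1 being tested in 2 of them, and the lowest adjusted p of a member in them was 0.450 in limma, for Vps35 with the mean of the cortical markers as covariate (log2 difference 0.17, unadjusted p = 0.0258), a fit added once values were known. Of 137 values of single members under alternatives, 135 kept their direction and 2 turned. Rilpl1 turned to 0.031 without knock-in replicate 1 and was otherwise between -0.091 and -0.030 when single libraries were left out, and Spag9 turned to 0.017 with the covariate. Lrrk1 moved to -0.24 with a pseudocount of 0.1 and to -0.20 on the TPM scale, where 1 unit is a smaller part of its level. The difference of Ppm1h stayed between 0.09 and 0.17, with unadjusted p from 0.0463 (quantile normalization) to 0.267 (covariate) and adjusted p from 0.725 to 1. The median log2 difference of the 10 genes, -0.05, was -0.091 on the TPM scale, where the median of all tested genes was -0.06, and 0.0054 with the covariate. Leaving out single libraries it ran from -0.033 (without wild type replicate 1) to -0.0012 (without knock-in replicate 1), and the count of genes called over the whole table, 3 with all libraries, ran from 3 to 15 (11, 15 and 6 when knock-in replicates 1, 2 and 3 were left out in turn, and 8 without wild type replicate 2). With the replicate number as a block 2 genes were called, 0 of them members, and the block changed no call of a member. The deviations of same-numbered libraries correlated at -0.011, -0.074 and 0.186. Those of differently numbered libraries ran from -0.18 (knock-in replicate 3, wild-type replicate 1) to 0.21 (knock-in replicate 2, wild-type replicate 1). So few correlations cannot decide whether libraries were paired, and the labels state no pairing. Leaving out single libraries, the Rilpl1 to Rilpl2 log2 ratio difference ran from -0.0020 to 0.17 and that of Mapk8ip3 to Spag9 from -0.076 to 0.037. The Gak to Dnajc6 ratio difference, -0.11 with all libraries, ran from -0.20 (without wild type replicate 3) to -0.05 (without wild type replicate 2), and that of Lrrk2 to Lrrk1 from 0.28 to 0.41. With a minimum of 5 FPKM, Ppm1h, Rilpl2 and Lrrk1 gave no value. The spread of 3 libraries a group limits what could be called, and Lrrk1, under 1 FPKM, is the least certain level.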
